A study of Mus musculus with 19 samples.

Results

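Wild-type midbrain and wild-type limb bud were compared by capture Hi-C across the Shh region of the mouse, over every pair of positions in the region rather than over the Shh promoter and its limb enhancer alone. Capture Hi-C ligates DNA ends that lie close together in fixed nuclei and enriches the products for 1 genomic region before sequencing. The samples were chosen by tissue and genotype from the labels, and they are 5 of the 19 samples in the study, 2 of midbrain and 3 of limb bud. Both tissues came from C57BL/6 embryos at day E10.5 and neither carried a deletion. The other samples, in 7 further groups, were limb buds with deletions of CTCF sites, of ZRSreg or of the Lmbr1 promoter, midbrain with a CTCF site deletion, and embryonic stem (ES) cells, which serve here only as points of comparison. All of these carry the strain label G4.

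Each group was deposited as 1 merged contact map, so replicates could not be compared, and differences carry no p-value. Intervals printed beside a ratio are 95% intervals that cover counting error only, since read pairs were not marked by molecular identifiers and need not be independent. They compare these libraries and not the tissues. Another midbrain map and another limb map, both from embryos that lack the CTCF sites named i4, i5 and ZRS (i4i5ZRS), share no sample with the wild-type maps and were used to ask whether a difference recurred. The spread between limb maps was read from a pair of limb maps, the ZRSreg deletion over the Lmbr1 promoter deletion, and from the range over all 6 limb maps, whose genotypes differ. The tissue identity of the samples was not tested, because contact maps hold no expression values. Both tissues are mixtures of cells, and a contact made in fewer cells cannot be told apart from a weaker contact in every cell.

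Sonic hedgehog, the protein made from Shh, is secreted and sets the pattern of the growing limb and of the ventral nervous system. It lies at 1 end of a topologically associating domain, a stretch of chromosome whose parts contact each other more than they contact the outside, and the other end of the domain holds Lmbr1. The ZRS, the limb enhancer of Shh, sits in an intron of Lmbr1, and the gene desert between Shh and Rnf32 holds enhancers that act in the brain and other tissues. En2, a homeobox gene of the midbrain and hindbrain, and Cnpy1, a gene known from the boundary between them, lie in the neighbouring domain on the other side of Shh.

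The maps cover 280 bins of 10 kb on chromosome 5, from 27800001 to 30600000 in the mm9 build. They hold 2201297 contacts in midbrain and 2862106 in limb, both recovered from the balanced values, with a median of 13953 contacts per bin in midbrain and 18270 in limb. Every value below, unless said otherwise, is an observed over expected level, the balanced signal over the map's own mean for that separation, so that 1 is the average for that distance. Since the average is taken within the region, a higher level at 1 place goes with lower levels at the same separation elsewhere, and all differences are relative. Distances are counted from the bin at 28790001 to 28800000, which holds most of the Shh promoter. The region was divided at the borders of the Shh domain, at -30 and 910 kb. The Shh domain runs from -20 to 910 kb. Below it lies the domain from Insig1 to Rbm33 (-410 to -30 kb), and above it the domain from Nom1 to Dnajb6 (920 to 1340 kb). The stretch below Insig1 reaches down to -990 kb and the stretch above Dnajb6 up to 1810 kb. Genes were placed at bins from general knowledge of their distances from Shh, to about 1 or 2 bins, because no annotation of the mm9 build was used.

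Among the bins described below are those placed at En2 (28480001 to 28510000), Cnpy1 (28530001 to 28580000), Rbm33 (28640001 to 28750000) and Mnx1 (29790001 to 29820000). RefSeq promoter sequence in the GRCm38.p6 build was found for 11 of the 13 named genes looked up. The 250 bases before the start of 3 of these genes are shown, with every CpG dinucleotide in capitals, to show what kind of start site lies in these bins. All 3 are rich in CpG.
Cnpy1 (chr5:28210169-28210418, minus strand): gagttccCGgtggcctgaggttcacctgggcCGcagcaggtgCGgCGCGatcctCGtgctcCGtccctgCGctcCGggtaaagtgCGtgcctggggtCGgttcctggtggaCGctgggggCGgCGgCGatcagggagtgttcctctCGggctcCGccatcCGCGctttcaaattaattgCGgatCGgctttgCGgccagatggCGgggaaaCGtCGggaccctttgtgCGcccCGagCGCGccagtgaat
Rbm33 (chr5:28316939-28317188, plus strand): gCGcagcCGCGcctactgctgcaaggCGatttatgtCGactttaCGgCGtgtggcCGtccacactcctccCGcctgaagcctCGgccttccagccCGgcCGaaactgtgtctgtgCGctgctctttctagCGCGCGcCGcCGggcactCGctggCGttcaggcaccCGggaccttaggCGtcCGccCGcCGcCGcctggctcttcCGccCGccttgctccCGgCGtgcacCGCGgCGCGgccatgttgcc
Mnx1 (chr5:29478471-29478720, minus strand): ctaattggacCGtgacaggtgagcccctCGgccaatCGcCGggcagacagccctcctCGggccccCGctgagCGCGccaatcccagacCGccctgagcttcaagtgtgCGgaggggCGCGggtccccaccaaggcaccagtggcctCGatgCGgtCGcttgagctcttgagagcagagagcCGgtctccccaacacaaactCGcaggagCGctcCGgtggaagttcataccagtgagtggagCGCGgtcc

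The Cnpy1 sequence holds 29 CpG, the Rbm33 sequence 34 and the Mnx1 sequence 21, against a median of 6 over 32851 promoters. A further Cnpy1 start site in the table holds 4. DpnII, the enzyme that cut the chromatin, recognises GATC, which occurs 3 times in the Cnpy1 sequence and not in the other two, against 41.9% of all promoters with a site.

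The first question was how far the 2 maps differ at all. Over the 37950 pairs of bins at 50 kb or more the levels in midbrain and limb had a Spearman correlation of 0.59, given as a description because neighbouring pairs share bins and depth. The same value was 0.49 between the midbrain and limb maps with the i4i5ZRS deletion and 0.63 between the pair of limb maps. By separation it was 0.75 at 50 to 100 kb, 0.79 at 250 to 500 kb, 0.62 at 1000 to 1500 kb and 0.20 beyond 1500 kb, where few contacts remain. Over all these pairs, it was 0.54 between the wild-type and i4i5ZRS maps of midbrain, below the value between the tissues in wild type.

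To find where they differ, levels were averaged in sliding blocks of 5 by 5 bins at separations of 100 kb or more. With at least 100 contacts required in each map, 33088 blocks were measured, and neighbouring blocks overlap. In midbrain 31 blocks (0.0937%) were higher than in limb by at least 1.5-fold and 128 blocks (0.387%) were lower by as much. In the i4i5ZRS pair 59 of 31580 blocks (0.187%) were higher in midbrain and 590 (1.87%) were lower. In the pair of limb maps 2 of 33397 blocks (0.00599%) were higher and 29 (0.0868%) were lower. The SD of the log2 ratio over blocks was 0.19 for wild-type midbrain over limb, 0.23 for the i4i5ZRS pair and 0.16 for the pair of limb maps. Set against the limb map that lacks the Lmbr1 promoter, midbrain had 7 higher and 15 lower blocks, fewer in all than between the pair of limb maps.

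The blocks past the threshold were not evenly spread, though overlapping blocks tend to pass together. Of the 128 lower blocks, 113 had 1 end in the domain from Insig1 to Rbm33, where 27.9% of all measured blocks have an end. Of these 113, 81 joined that domain to the Shh domain and 32 joined it to the stretch above Dnajb6. The remaining 15 had an end below Insig1. Of the 31 higher blocks, 25 had an end below Insig1, against 34.9% of all blocks, and 3 lay within the domain from Insig1 to Rbm33. Coverage below Insig1 was thin, with a median of 4280 midbrain contacts per bin at 100 kb or more, against 8178 in the Shh domain. A minimum of 200 contacts per block left 12 higher blocks. None of the 3486 blocks within the Shh domain passed 1.5-fold in either direction.

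The direction recurred in the other embryos. Of the 159 blocks past the threshold, 149 could also be measured in the i4i5ZRS pair, and 144 of these had the same sign there, against 72.2% of all blocks measured in both pairs. Of the higher blocks 21 of 22 kept their sign. Over all 31410 blocks measured in both pairs the log2 ratios had a Spearman correlation of 0.61, a description over blocks that overlap. In the map of log2 ratios the same stripes appear above and below the diagonal.

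**Figure D1:**
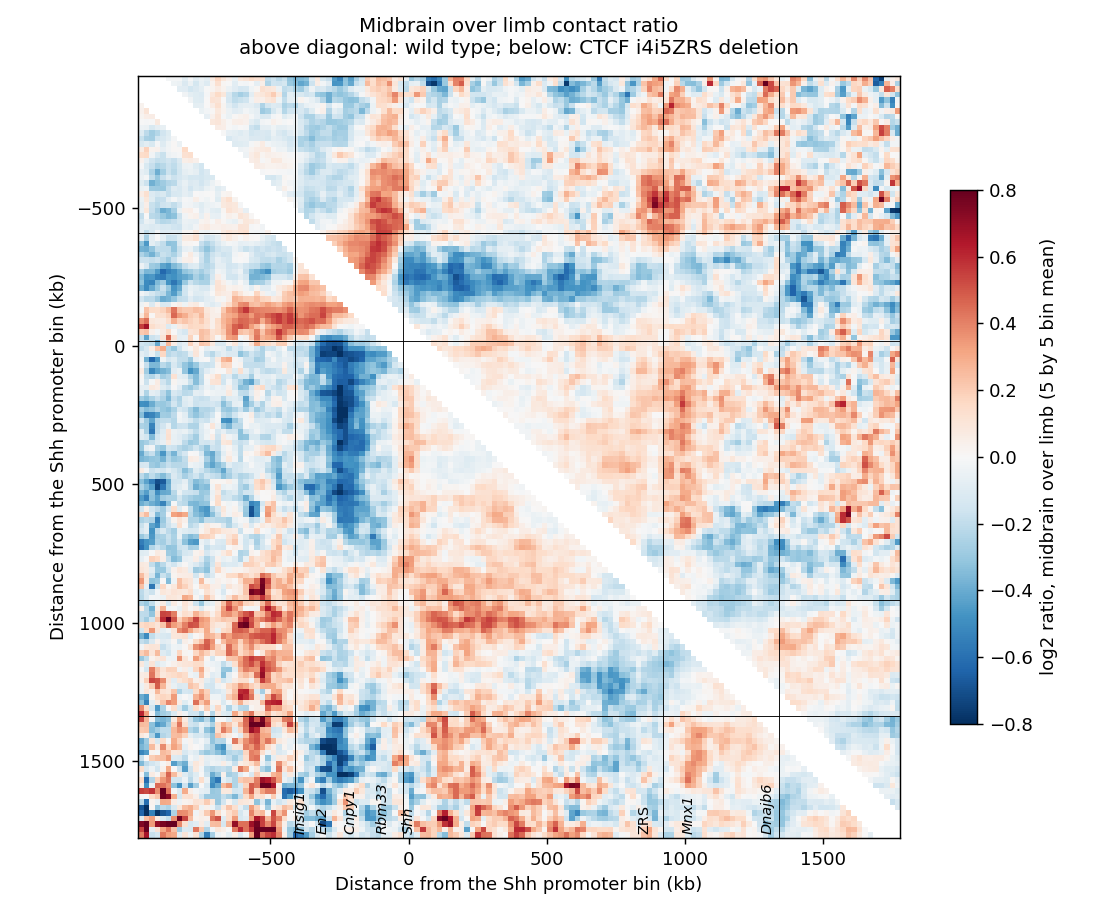
Log2 ratio of contact in midbrain over limb as a mean over 5 by 5 bins, at separations of 100 kb or more, with both axes in kb from the Shh promoter bin. The wild-type maps are above the diagonal and the i4i5ZRS maps below it, lines mark the limits of the domains, and gene names mark approximate positions. The blue stripe from Cnpy1 across the Shh domain and the red patch of Rbm33 with the bins below it stand on both sides of the diagonal.

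Among the domain pairs, the largest difference was within the domain that holds En2 and Cnpy1. Within it, contact in midbrain was above the average for its distance and contact in limb below it. The level was 1.13 in midbrain and 0.95 in limb (76677 and 91700 contacts), a log2 ratio of 0.24 (0.23 to 0.26), and 79.7% of its 561 bin pairs were higher in midbrain. The i4i5ZRS maps gave a log2 ratio of 0.20 (0.19 to 0.22). Over all 6 limb maps the level ran between 0.95 and 1.05, below both midbrain maps at 1.13. The pair of limb maps differed by -0.13, because the limb map with the Lmbr1 promoter deletion had the highest level of the 6, so the limb maps differ among themselves along the same direction as the tissues.

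Contact of this domain with the Shh domain and with the stretch above Dnajb6 was lower in midbrain. With the Shh domain the level was 0.87 in midbrain and 0.96 in limb, a log2 ratio of -0.13 (-0.15 to -0.12), and -0.21 in the i4i5ZRS pair. Wild-type midbrain lay within the limb range here, since 3 of the 6 limb maps were below it, i4i5 at 0.86 and both i4i5ZRS and i4i5 with ZRSreg at 0.84. With the stretch above Dnajb6 the level was 0.88 in midbrain and 1.00 in limb, a log2 ratio of -0.18 (-0.21 to -0.14), with -0.21 in the i4i5ZRS pair. This last value shrank to -0.06 when the maps were scaled by total signal in place of distance. With the stretch below Insig1 the level was 0.98 in both midbrain and limb. With the domain from Nom1 to Dnajb6 it was 1.46 in midbrain and 1.53 in limb, a log2 ratio of -0.07 (-0.09 to -0.05) that did not recur in the i4i5ZRS pair, at 1.41 in both midbrain and limb.

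Within the Shh domain midbrain was slightly higher, with 1.503 in midbrain and 1.43 in limb, a log2 ratio of 0.072 (0.066 to 0.079), and 0.11 in the i4i5ZRS pair. Midbrain with the i4i5ZRS deletion was at 1.44, below limb with the Lmbr1 promoter deletion at 1.46, so the groups overlapped. Scaling by total signal left a wild-type log2 ratio of 0.0079. Between the Shh domain and the domain above it the log2 ratio was 0.03 (0.02 to 0.05), smaller than the -0.09 between the pair of limb maps, and it turned to -0.03 with total scaling. Within the domain from Nom1 to Dnajb6 it was -0.08 in both pairs of tissues. The stretch below Insig1 and the domain from Nom1 to Dnajb6, which lie on opposite sides of the Shh domain, contacted each other more in midbrain, at 1.09 in midbrain and 1.02 in limb, a log2 ratio of 0.10 (0.07 to 0.13) and 0.15 in the i4i5ZRS pair. Within the stretch above Dnajb6 the log2 ratio was -0.10 (-0.12 to -0.09), with -0.05 in the i4i5ZRS pair, and the stretch below Insig1 had 0.93 in midbrain and 0.96 in limb within itself. The 4 remaining pairs of domains had wild-type log2 ratios from -0.01 to 0.04. Among them, the stretch below Insig1 with the stretch above Dnajb6 had 0.02, but 0.31 when the maps were scaled by total signal.

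**Figure D2:**
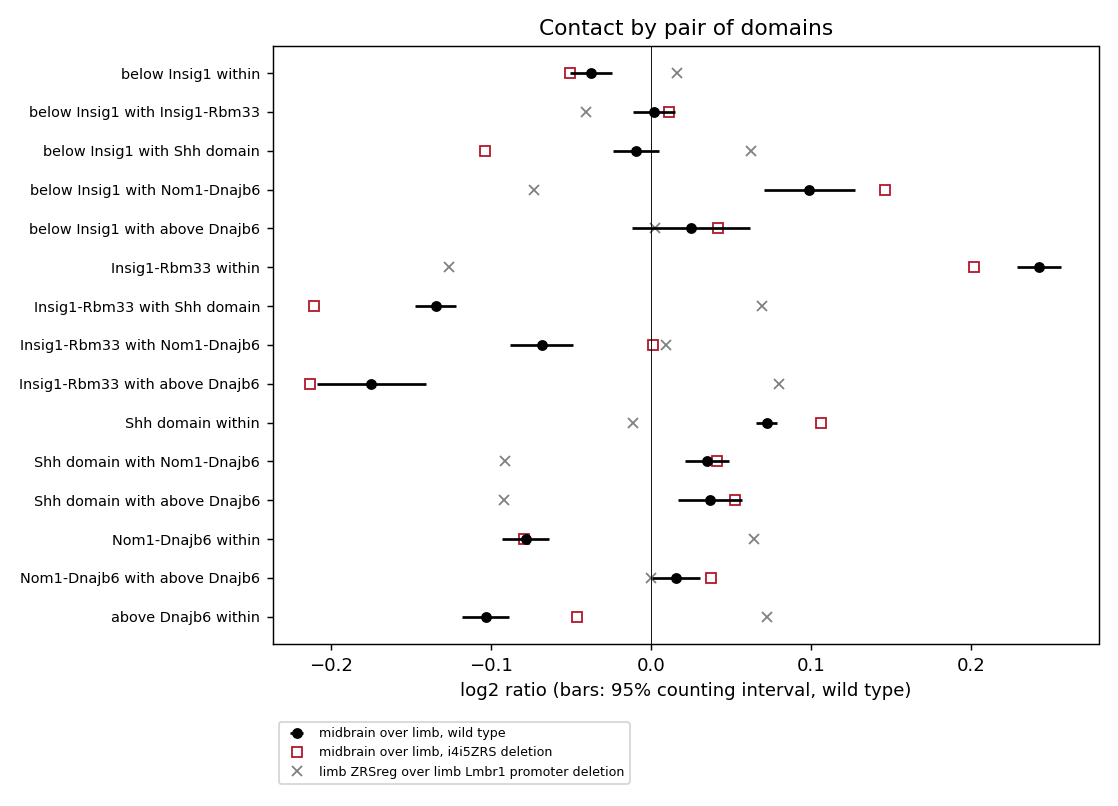
Log2 ratio of mean observed over expected for each pair of domains. Black points with 95% counting intervals are wild-type midbrain over limb, red squares are midbrain over limb with the i4i5ZRS deletion, and grey crosses are limb with the ZRSreg deletion over limb with the Lmbr1 promoter deletion. The domain from Insig1 to Rbm33 stands at 0.24 within itself and at -0.13 with the Shh domain, and the crosses lie on the opposite side of 0 in both.

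The grey crosses of the domain plot carry a limit that bears on all of the following values. The log2 ratio of the pair of limb maps had the opposite sign to that of wild-type midbrain over limb in 13 of the 15 domain pairs, and it was the smaller of the 2 in size in 11. Among the 26 gene pairs in which both midbrain maps lay outside all 6 limb maps, the limb map with the Lmbr1 promoter deletion was the nearest to midbrain in 17. That map has the most contacts of the limb maps, at 3022706, and the label strain G4. Set against it in place of wild-type limb, midbrain had 7 blocks higher and 15 lower by 1.5-fold. Set against the limb map with the ZRSreg deletion, it had 135 higher and 242 lower. What the distance between these limb maps comes from was not tested.

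Gene by gene, 17 intervals were placed along the region, and 140 of their 143 pairs had at least 100 contacts in both wild-type maps. None of the 140 (0%) passed 1.5-fold in either direction, and their log2 ratios ran from -0.57 to 0.47. The counting interval left out 0 for 70 pairs, 33 higher and 37 lower in midbrain, and 64 of the 70 had the same sign in the i4i5ZRS pair. The share with the same sign over all 143 pairs was not counted. Over all sliding blocks measured in both tissue pairs it was 72.2%. Of all 143 pairs, 12 (8.39%) were higher in both midbrain maps than in every limb map and 14 (9.79%) were lower in both. Of the sliding blocks, 8.35% were higher and 13.0% lower in this sense, so the gene intervals met this criterion about as often as the region did.

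The largest of these differences was the contact of En2 with Shh. Its level was 1.13 in wild-type midbrain and 1.03 in midbrain with the i4i5ZRS deletion. In limb it was 1.68 in wild type, 1.57 with the Lmbr1 promoter deletion, 1.72 with i4i5ZRS, 2.23 with i4i5, 2.25 with ZRSreg and 2.27 with i4i5 and ZRSreg. Both midbrain maps lay below all 6 limb maps, and ES cells, at 3.89, lay above them. The wild-type log2 ratio was -0.57 (-0.75 to -0.40, from 378 contacts in midbrain and 868 in limb), with all 6 bin pairs lower in midbrain, and the i4i5ZRS pair gave -0.74 (-0.95 to -0.53). The spread among limb maps was wide, with a log2 ratio of 0.52 between the pair of limb maps.

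En2 also contacted Mnx1, a homeobox gene of motor neurons and the pancreas that lies beyond the far border of the Shh domain, with the highest level of all 143 interval pairs in wild-type limb. The level was 6.32 in midbrain and 8.28 in limb, a log2 ratio of -0.39 (-0.50 to -0.28), with all 9 bin pairs lower in midbrain. The i4i5ZRS maps gave 4.75 in midbrain and 5.95 in limb, a log2 ratio of -0.32. Wild-type midbrain was thus above the lowest limb map, and the groups overlapped. Shh itself met Mnx1 at 4.74 in midbrain and 5.31 in limb, a log2 ratio of -0.16 (-0.32 to -0.01) that was no larger than the 0.21 between the pair of limb maps. The peak of En2 with Mnx1 was present in both tissues, at 1010 kb in the contact profile.

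With Rbm33 and Cnpy1, in its own domain, En2 had higher contact in midbrain. Its contact with Rbm33, which encodes an RNA-binding protein and is the last gene before Shh, was 1.01 in both midbrain maps. In limb it was 0.73 in wild type, between 0.71 and 0.75 in 4 of the other maps and 0.91 with the Lmbr1 promoter deletion, and the log2 ratio in wild type was 0.47 (0.39 to 0.54). Of 33 bin pairs, 32 were higher in midbrain. Contact of En2 with Cnpy1 was 1.27 in wild-type midbrain and 1.34 in midbrain with the i4i5ZRS deletion, against 0.99 to 1.10 over the 6 limb maps, a wild-type log2 ratio of 0.33 (0.26 to 0.40). In both cases the midbrain maps stood above every limb map. For En2, ES cells had 1.34 with Rbm33, above the midbrain maps too, but 1.05 with Cnpy1, within the limb range. With Insig1, the log2 ratio of En2 was 0.12 (-0.01 to 0.24) in wild type and 0.19 in the i4i5ZRS pair. The midbrain maps overlapped the limb maps for that contact.

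Further pairs with bins of this domain were also higher in midbrain. Insig1, whose product restrains sterol synthesis, met Rbm33 at 1.42 in midbrain and 1.09 in limb, a log2 ratio of 0.39 (0.30 to 0.48), with 22 of 22 bin pairs higher in midbrain and a limb range of 1.08 to 1.21. Insig1 met Cnpy1 at 1.22 in midbrain and 0.98 in limb, a log2 ratio of 0.32 (0.21 to 0.43), but the limb map with the Lmbr1 promoter deletion reached 1.19, so the gap to the nearest limb map was narrow. Htr5a, a serotonin receptor gene in the stretch below, met Rbm33 at 1.62 in midbrain and 1.22 in limb, a log2 ratio of 0.41 (0.32 to 0.51), and both midbrain maps exceeded the highest limb level of 1.41. ES cells were above the limb maps for Insig1 with Rbm33 (1.47) and Htr5a with Rbm33 (1.43). For Insig1 with Cnpy1 they were within the limb range, at 1.01. The Rbm33 bins had higher contact in midbrain with 55 of the 58 bins below Insig1 in wild type and with 51 of 58 in the i4i5ZRS pair. Between the pair of limb maps 6 of the 58 were higher. Within Rbm33 itself, at separations of 50 kb or more, the level was lower in midbrain, at 1.07 in midbrain and 1.22 in limb (log2 ratio -0.19, -0.24 to -0.14).

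Cnpy1 showed the lower contact with the Shh domain most evenly. Its bins were lower in midbrain with 91 of the 93 bins of the Shh domain. The level over the whole domain was 0.74 in midbrain and 0.96 in limb, a log2 ratio of -0.37 (-0.40 to -0.33), with -0.45 in the i4i5ZRS pair and values between -0.47 and -0.36 under the other scalings. Between the pair of limb maps 79 of the 93 bins were higher with the ZRSreg deletion. In the contact profile of Cnpy1 the midbrain line runs below the limb line from Shh across the desert, while both reach their highest level beyond the domain at 1010 kb, at 2.72 in midbrain and 2.93 in limb.

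**Figure D3:**
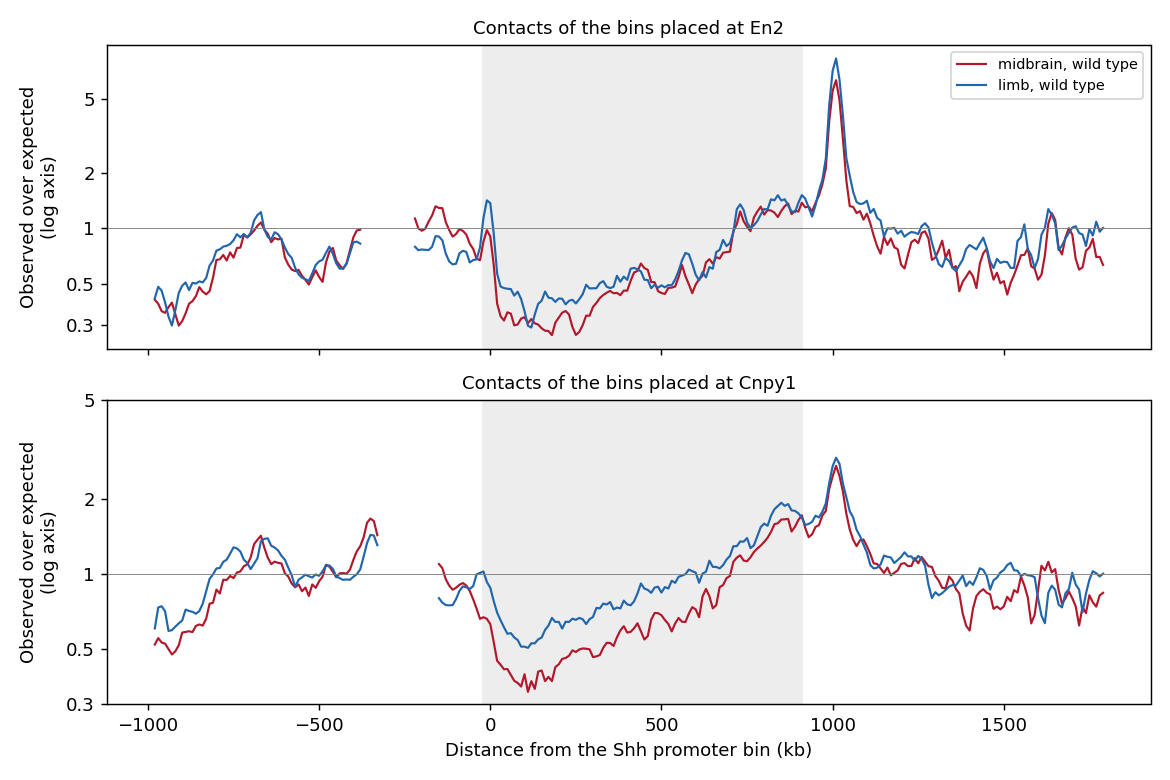
Observed over expected, on a log axis, of the bins placed at En2 (top) and Cnpy1 (bottom) with every other bin, as a running mean over 3 bins, in wild-type midbrain (red) and limb (blue). The x axis is the distance from the Shh promoter bin in kb, the grey band is the Shh domain, and the bins near each gene are left blank. The En2 profile peaks at 1010 kb, at 6.32 in midbrain and 8.28 in limb, and the Cnpy1 profile is lower in midbrain over the Shh domain.

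By position within the domain, the contact of Cnpy1 with Shh was 0.70 in midbrain and 0.94 in limb (log2 ratio -0.42, -0.59 to -0.26). With the near part of the desert, from 50 to 360 kb, it was 0.43 in midbrain and 0.62 in limb, a log2 ratio of -0.52 (-0.58 to -0.45, from 2998 contacts in midbrain and 5856 in limb). The i4i5ZRS pair gave -0.74 (-0.81 to -0.66) for the same pairs. With the far desert, from 360 to 730 kb, it was 0.71 in midbrain and 0.95 in limb (log2 ratio -0.41, -0.48 to -0.35). In each of these 3 pairs both midbrain maps were below all 6 limb maps. ES cells were below the limb maps with the near desert (0.51). With Shh (0.87) and the far desert (0.85) they lay within the limb range. Further along, the log2 ratio of Cnpy1 with Rnf32 was -0.25 in wild type but -0.06 in the i4i5ZRS pair. With the 3′ part of Lmbr1 it was -0.16 and -0.001. For Rnf32 and the 3′ part of Lmbr1 the midbrain maps overlapped the limb maps. En2 showed a smaller difference with the near desert, at 0.34 in midbrain and 0.42 in limb, and over the whole Shh domain its log2 ratio was -0.18 (-0.23 to -0.12).

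**Figure D4:**
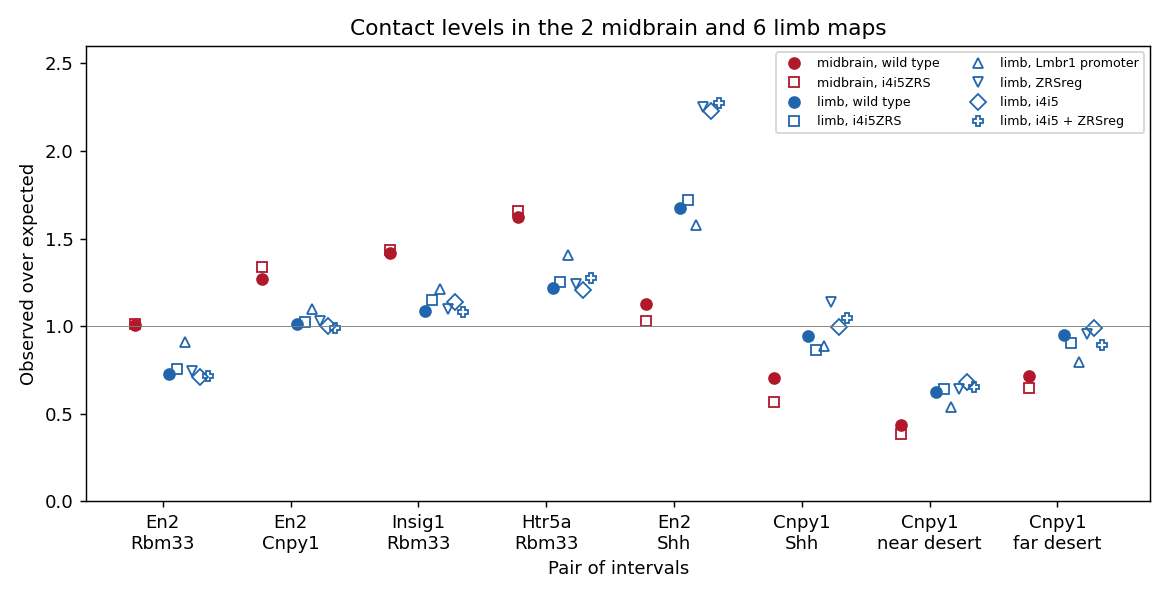
Observed over expected for 8 pairs of intervals in each of the 2 midbrain maps (red) and the 6 limb maps (blue), where filled circles are wild type and open symbols are deletions. In the first 4 pairs both midbrain maps lie above all limb maps and in the last 4 below all of them, with the Lmbr1 promoter deletion the nearest limb map in 7 of the 8 pairs.

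In wild type, Shh contacted the domain below it less in midbrain and its own domain more. The Shh bins were lower in midbrain with 31 of 36 bins of the domain from Insig1 to Rbm33 and higher with 68 of 86 bins of the Shh domain. The level with the domain below was 0.68 in midbrain and 0.85 in limb (log2 ratio -0.33, -0.38 to -0.27), with -0.46 in the i4i5ZRS pair. With the Shh domain it was 2.58 in midbrain and 2.29 in limb (log2 ratio 0.17, 0.14 to 0.20), with 0.27 in the i4i5ZRS pair. Midbrain with the i4i5ZRS deletion was at 2.38 here, below limb with the Lmbr1 promoter deletion at 2.43, so the groups overlapped. Between the pair of limb maps, 22 of 36 and 27 of 86 bins were higher with the ZRSreg deletion.

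Inside the domain the higher contact of Shh in midbrain was spread over the desert and the 3′ part of Lmbr1. With the near desert the level was 1.00 in midbrain and 0.88 in limb (log2 ratio 0.19, 0.13 to 0.24), and with the far desert 2.33 in midbrain and 2.03 in limb (log2 ratio 0.20, 0.14 to 0.25). For both stretches the 2 midbrain maps were higher than the 6 limb maps, narrowly so for the near desert, where the limb map with the Lmbr1 promoter deletion reached 0.97. With the 3′ part of Lmbr1, from 770 to 830 kb, Shh had 7.27 in midbrain and 5.86 in limb, a log2 ratio of 0.31 (0.22 to 0.40), with 12 of 12 bin pairs higher. The midbrain map with the i4i5ZRS deletion was at 6.12 there, within the limb range of 3.83 to 6.47, and its own log2 ratio over limb with the same deletion was 0.46 (0.34 to 0.58). With the window of the ZRS the levels were 6.61 in midbrain and 6.49 in limb, a log2 ratio of 0.03 (-0.09 to 0.14), so a difference was not detectable at this depth, and the i4i5ZRS pair gave 0.05 (-0.13 to 0.22).

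In wild type, the bins of the ZRS window as a whole were slightly higher in midbrain with the rest of the Shh domain, at 1.95 in midbrain and 1.80 in limb (log2 ratio 0.11, 0.09 to 0.14), and 61 of 81 bins had this direction. Midbrain with the i4i5ZRS deletion was at 1.63, below wild-type limb, so the groups overlapped. Rnf32, a RING finger gene at the upper end of the desert, and the 3′ part of Lmbr1 had lower contact in midbrain with the domain above, with log2 ratios of -0.21 (-0.28 to -0.15) and -0.14 (-0.18 to -0.09). The i4i5ZRS pair gave -0.26 and -0.15. The contact of Rnf32 with Ube3c, a ubiquitin ligase gene of that domain, was 0.57 in midbrain and 0.68 in limb. The bins of the Lmbr1 promoter met the stretch below Insig1 at 1.39 in midbrain and 1.10 in limb (log2 ratio 0.33, 0.21 to 0.45), with 0.13 in the i4i5ZRS pair. With the domain from Nom1 to Dnajb6 they had a log2 ratio of -0.16 (-0.21 to -0.10), with -0.17 in the i4i5ZRS pair, but 0.26 between the pair of limb maps. That pair includes the map that lacks the Lmbr1 promoter, so for these bins its value cannot be read as spread between limb maps alone. Paxip1, whose product belongs to histone methyltransferase complexes, had log2 ratios between -0.06 and 0.05 with the 5 stretches of the region, and Dnajb6, a co-chaperone gene, between -0.04 and 0.07. Scaled by total signal, Paxip1 reached 0.24 with the stretch above Dnajb6, and Dnajb6 reached 0.27 with the stretch below Insig1.

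The genes just beyond the upper border had higher contact with the Shh domain in wild-type midbrain than in wild-type limb. Nom1, which encodes a nucleolar protein, was higher in midbrain with 71 of 93 bins of the domain, at 0.74 in midbrain and 0.64 in limb (log2 ratio 0.21, 0.17 to 0.25). Mnx1 was higher with 74 of 93 bins, at 0.78 in midbrain and 0.68 in limb (log2 ratio 0.19, 0.14 to 0.24). The i4i5ZRS pair gave 0.23 and 0.20. Limb with the i4i5ZRS deletion was above wild-type midbrain for both genes, at 0.84 for Nom1 and 0.85 for Mnx1. The pair of limb maps differed by -0.22 for Nom1 and -0.15 for Mnx1. Mnx1 with the near desert had 0.77 in wild-type midbrain and 1.00 in midbrain with i4i5ZRS, against 0.61 in wild-type limb and a range of 0.58 to 0.78 over the 6 limb maps, so wild-type midbrain did not stand clear of the limb maps. The pair of limb maps differed by -0.33 for this contact and by -0.35 for Nom1 with the near desert, as much as the tissues did, at 0.34 and 0.35. Coverage also differed, since the bins of Nom1 and Mnx1 had lower shares of the contacts before balancing in midbrain, by log2 ratios of -0.12 and -0.11. Shares were also lower at En2 (-0.09), Shh (-0.07), Ube3c (-0.10) and Dnajb6 (-0.08), and between -0.06 and 0.05 at the other intervals. The part of this in the results, those of En2 with Shh and Mnx1 included, was not tested.

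Of the 5 highest single blocks, 4 rested on under 200 contacts in midbrain. The highest was centred on -520 and 890 kb, with 1.65 in midbrain and 0.95 in limb from 138 and 136 contacts, a log2 ratio of 0.80 (0.445 to 1.149), and 0.59 in the i4i5ZRS pair. It and the second, at -530 and 960 kb (0.68, 0.31 to 1.05), joined the stretch between Htr5a and Insig1 to the bins on either side of the upper border. In both blocks a limb map, that with the Lmbr1 promoter deletion, came close to wild-type midbrain, at 1.35 and 1.18, and in the second it exceeded the midbrain map with the i4i5ZRS deletion, at 1.12. The third, at -520 and -120 kb, joined the same stretch to Rbm33, with 1.09 in midbrain and 0.70 in limb from 387 and 392 contacts (log2 ratio 0.65, 0.45 to 0.86), and both midbrain maps were above the limb range of 0.70 to 0.95. The other two, at -570 and 1370 kb and at -870 and 950 kb, had log2 ratios of 0.63 and 0.62, with 0.90 and -0.02 in the i4i5ZRS pair.

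Of the 5 lowest blocks, both with over 200 contacts in each map joined Cnpy1 to the desert. The block at -240 and 170 kb had 0.39 in midbrain and 0.63 in limb from 414 and 901 contacts, a log2 ratio of -0.71 (-0.88 to -0.54), and -0.84 in the i4i5ZRS pair. The block at -250 and 560 kb had 0.59 in midbrain and 0.97 in limb (log2 ratio -0.71, -0.89 to -0.53), and -0.63 in the i4i5ZRS pair. For both, the 2 midbrain maps were below the 6 limb maps. The remaining lowest blocks, at -950 and 90 kb, at -200 and 1390 kb and at -960 and 570 kb, had log2 ratios of -0.77, -0.75 and -0.73 but only -0.28, -0.02 and -0.24 in the i4i5ZRS pair.

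Insulation scores the signal that spans a bin, in squares of 10 by 10 bins, as a log2 ratio to the map's average. Low values mark borders. The lower border of the Shh domain, at -30 kb, stood at -1.12 in midbrain and -1.04 in limb, and the upper border at 910 kb at -0.68 in midbrain and -0.78 in limb, differences within or close to the SD of 0.09 over all 260 bins. The widest difference lay at Cnpy1, between the lower border and Insig1. At -240 kb insulation was 0.22 in wild-type midbrain and 0.24 in midbrain with the i4i5ZRS deletion, against -0.10 in wild-type limb and a range of -0.15 to 0.05 over the limb maps. The difference in wild type was 0.32, and 0.25 in the i4i5ZRS pair. ES cells stood at 0.27 at this bin, above the limb maps as well. At -290 kb they stood at 0.13, below the limb range of 0.24 to 0.32.

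Limb had a shallow minimum of insulation at -180 kb, at -0.25, where midbrain stood at 0.00. The nearest minimum in midbrain was at -150 kb, at -0.11, where limb stood at -0.18. All 15 bins from -310 to -170 kb were higher in both midbrain maps than in all 6 limb maps, by 0.11 to 0.32 in wild type. Of all 260 bins, 27 were above and 33 below the limb maps in this sense. The limits of the run from -310 to -170 kb do not come from the naming rule. Squares of neighbouring bins overlap, so the count of 15 is a description. Wild-type midbrain was lower at Rbm33, at -90 kb, with -0.21 in midbrain and -0.06 in limb, and at 820 kb, in the 3′ part of Lmbr1, with -0.51 in midbrain and -0.35 in limb. At 820 kb midbrain with the i4i5ZRS deletion was at -0.20, within the limb range of -0.41 to -0.10. Wild-type midbrain was also lower at -410 kb, below Insig1, with -0.15 in midbrain and 0.00 in limb. There the lowest limb map, with the Lmbr1 promoter deletion, was at -0.12. The SD of the difference along the region was 0.09 in wild type, 0.08 in the i4i5ZRS pair and 0.06 between the limb maps, and the differences of both tissue pairs had a Spearman correlation of 0.72 over bins whose squares overlap.

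**Figure D5:**
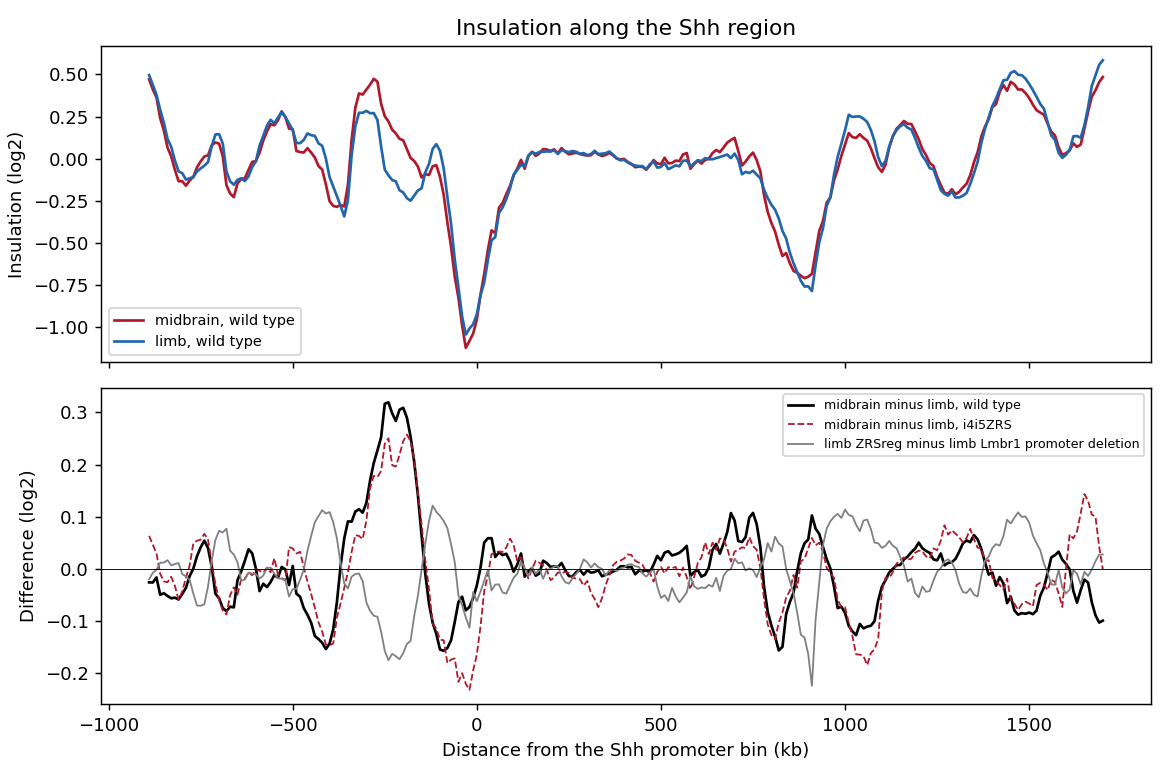
Insulation along the region (top) in wild-type midbrain (red) and limb (blue), in log2 units, with the x axis in kb from the Shh promoter bin. The lower panel gives the difference of midbrain minus limb in wild type (black) and with the i4i5ZRS deletion (dashed red), and of limb with the ZRSreg deletion minus limb with the Lmbr1 promoter deletion (grey). The wild-type difference is widest at -240 kb, at 0.32, where the i4i5ZRS difference is 0.25 and the grey line dips to -0.17. At -190 kb the tissue differences are 0.29 in wild type and 0.26 with the i4i5ZRS deletion.

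Contact profiles of single bins were also compared. For each bin, the levels with all other bins at 100 kb or more were correlated between midbrain and limb. The bins at 810, 820 and 850 kb, in the 3′ part of Lmbr1 and the ZRS window, and the Shh promoter bin itself had the highest Spearman correlations, from 0.85 to 0.88. By domain the median was 0.73 in the Shh domain, 0.66 in the domain from Insig1 to Rbm33, 0.62 in the domain from Nom1 to Dnajb6, 0.42 above Dnajb6 and 0.25 below Insig1. Between the pair of limb maps the medians ran in the same order, at 0.77, 0.69, 0.63, 0.46 and 0.25. The 5 least alike bins, at -500, -540, -480, -970 and -600 kb, had correlations of 0.05 to 0.09, and with 1128 to 2594 contacts per profile in midbrain, against medians of 8178 in the Shh domain and 4280 below Insig1, they had fewer contacts than the median bin of that stretch.

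The decay of contact with distance, which the scaling removes, was compared as the share of signal in bands of separation. Pairs at 10 to under 50 kb held 35.6% of the signal between bins in midbrain and 33.9% in limb, but the i4i5ZRS maps had the opposite order, with 36.2% in midbrain and 36.8% in limb. Pairs at 1500 kb or more held 3.60% in midbrain (3.57% to 3.63%) and 3.25% in limb (3.23% to 3.27%), and in the i4i5ZRS maps 3.63% in midbrain and 3.10% in limb. The intervals are Wilson intervals of the share of recovered contacts, shifted onto the balanced share. From 1000 kb on the shares were 9.63% in midbrain and 9.57% in limb, a difference of 0.07 points whose sign changed without balancing and against other limb maps.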

How the data were processed

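The authors deposited a balanced (KR) signal for each pair of 10 kb bins, with a group's samples merged, as the file names state. SAMtools, Juicer, Bowtie2 (2.3.4.1), cutadapt (1.15) and mm9 are named in the submitters' processing notes, with settings not given in the sources used here. Unlisted pairs were taken as 0. Whole contact counts were recovered from the balanced signal, 100% of them within 0.01 of a whole number, and gave the counting intervals (exact Clopper-Pearson of the 2 maps' counts, Wilson for shares). Both kinds were computed on the counts and shifted onto the balanced value. The recovery was tested on simulated maps. A library number is shared by 2 wild-type limb samples, and the design text calls mutant samples technical replicates. Intervals, domains and the comparison itself were chosen with earlier results of these data known. The naming rule takes all intervals and domain pairs, the 5 highest and 5 lowest blocks at least 50 kb apart, the 5 least alike profiles, and the 3 widest insulation differences each way. The gene pairs given in full were selected after their values were seen. Promoter sequences are RefSeq's. Alternatives were the expected value, scaling, balancing, depth, block size, contact minimum, separation, domain limits, square size and limb map. Work was done in Python 3.11.15 with numpy 2.4.6, scipy 1.17.1 and pandas 2.3.3.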

Additional observations from a re-analysis of the deposited data

Results flagged for a closer look

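The contact of Htr5a with the far desert took opposite signs in the 2 tissue pairs. The log2 ratio of midbrain over limb was 0.13 in wild type (0.05 to 0.22, with levels of 1.09 in midbrain and 0.99 in limb) and -0.11 with the i4i5ZRS deletion (-0.21 to -0.003, with levels of 0.96 in midbrain and 1.03 in limb). The difference between the pairs was not tested. The 2 midbrain maps overlapped the 6 limb maps, which ran from 0.89 to 1.05.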

How the results depend on the processing

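The wild-type signs within the Shh domain, within the domain from Insig1 to Rbm33 and between these domains were the same under every alternative tried, at 0.01 to 0.10, 0.10 to 0.30 and -0.20 to -0.07 on the log2 scale. With the median as the expected value, map correlation was 0.57, 48 blocks were higher, 1 interval pair passed 1.5-fold, and the log2 ratios were 0.079 within the Shh domain, 0.22 within the domain below and -0.10 within the domain above. With scaling by total signal, 133 blocks were higher and 200.0 lower, 90.1% of them with the same sign in the i4i5ZRS pair, 1 interval pair passed, and the log2 ratios were 0.0079 and 0.15 within the Shh domain and the domain below, -0.10 within the domain above, -0.20 between Shh and the domain below, and -0.031, a reversal, between Shh and the domain above. Without balancing, these 5 ratios were 0.10, 0.26, -0.19, -0.10 and 0.017, map correlation was 0.83, 1 interval pair passed, and the share beyond 1000 kb reversed to -0.12 points. With limb thinned to the depth of midbrain, map correlation was 0.57. Blocks of 3 by 3 bins gave 103 higher, and blocks of 7 by 7 bins 10 higher and 36 lower. A minimum of 50 contacts gave 59 higher, and one of 200 contacts 12 higher and 81 lower. Separations of 100 kb or more gave 0.30 within the domain below Shh and -0.10 within the domain above. Shrunken domains gave 0.27 within the domain below and -0.17 with Shh. The insulation difference at -240 kb was 0.20 with a 5 by 5 square.

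Limb maps other than wild type were chosen as alternatives after seeing the data. Against the Lmbr1 promoter deletion, 7 blocks were higher and 15 lower, 87.5% with the same sign in the i4i5ZRS pair. The domain ratios were then 0.044 within Shh, 0.10 within the domain below, 0.0023 (reversed) within the domain above, -0.072 with the domain below and 0.0035 with the domain above, the share beyond 1000 kb was -0.060 points (reversed), and insulation 0.17. Against the ZRSreg deletion, 135 blocks were higher, 242 lower and 3 interval pairs passed, the ratios were 0.055 within Shh, -0.062 within the domain above and 0.10 between Shh and the domain above, and the share was -0.012 points (reversed). The causes were not tested. Of the values of single gene pairs and blocks under these alternatives, 123 moved by less than their counting interval and 27 by more, and none of those whose counting interval left out 0 changed sign. Of 15 gene pairs recomputed, 14 had 1 sign under all 6 alternatives, and Shh with the ZRS window ran from -0.092 to 0.032. The -0.092 came from limb with the ZRSreg deletion, by its name a change at the ZRS itself. Counts without balancing, from the wild-type maps, gave -0.027. No paired analysis was possible because the samples of a group were merged before deposit. Depth limits the long separations: beyond 1500 kb midbrain held 52052 contacts and limb 65058. With 1 map per tissue, no difference has a replicate check, and gene positions are approximate.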
